A study of Mus musculus with 24 samples.

Results

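The genes described are the hypoxia-inducible factors and their oxygen sensors in cultured embryonic mouse neural stem cells exposed to dexamethasone, a synthetic glucocorticoid. They were chosen by symbol, as the rows named Hif3a, Hif1a, Epas1, Arnt, Arnt2, Egln1, Egln2, Egln3, Hif1an or Vhl, and all 10 were found, of 38924 gene entries in each deposited table. RNA was sequenced from neurospheres, balls of stem-like and progenitor cells that float in culture, derived from brains of embryonic day 14.5 mice and used at passage 3. The 8 groups were female cortex with dexamethasone (100 nM for 4 hours) and with ethanol vehicle, male cortex with dexamethasone and with vehicle, female hypothalamus with dexamethasone and with vehicle, and male hypothalamus with dexamethasone and with vehicle. Each group held 3 biological replicates. The labels named no strain and left unstated how many embryos made up a replicate.

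Hypoxia-inducible factors are pairs of an oxygen-sensitive alpha subunit (Hif1a, Epas1 or Hif3a) and a stable partner (Arnt or Arnt2). In oxygenated cells the prolyl hydroxylases Egln1, Egln2 and Egln3 mark the alpha subunits, Vhl recruits a ubiquitin ligase to the marked protein, and the protein is destroyed, while the asparaginyl hydroxylase Hif1an blocks recruitment of coactivators. These steps act on protein, so RNA levels of the genes do not measure the activity of the pathway. In the neural lineage the pathway is known for its part in the low-oxygen niche of stem cells.

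Promoter sequences are shown for 3 members: Hif3a, the member with the largest change after dexamethasone, Hif1a, the alpha subunit with the highest level, and Egln3, the sensor with the largest fall. They are RefSeq windows of the mouse build GRCm38.p6, from 250 bases before to 50 after the annotated start, printed 5′ to 3′ on the gene's strand. Capitals mark ACGTG, the core of the hypoxia response element, on either strand; CACGTG holds one on each strand and is counted as 2.
Hif3a (chr7:17062378-17062677, minus strand): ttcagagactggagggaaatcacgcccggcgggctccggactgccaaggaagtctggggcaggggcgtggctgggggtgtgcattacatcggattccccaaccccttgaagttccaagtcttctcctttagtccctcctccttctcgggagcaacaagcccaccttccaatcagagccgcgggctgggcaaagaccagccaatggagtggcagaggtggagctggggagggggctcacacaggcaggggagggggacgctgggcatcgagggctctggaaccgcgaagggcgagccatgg
Hif1a (chr12:73907617-73907916, plus strand): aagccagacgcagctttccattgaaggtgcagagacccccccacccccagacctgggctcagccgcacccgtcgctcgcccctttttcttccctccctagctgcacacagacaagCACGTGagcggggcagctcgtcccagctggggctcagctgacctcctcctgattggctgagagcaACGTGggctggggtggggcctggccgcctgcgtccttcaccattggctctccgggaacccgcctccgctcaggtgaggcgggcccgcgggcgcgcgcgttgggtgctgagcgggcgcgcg
Egln3 (chr12:54203825-54204124, minus strand): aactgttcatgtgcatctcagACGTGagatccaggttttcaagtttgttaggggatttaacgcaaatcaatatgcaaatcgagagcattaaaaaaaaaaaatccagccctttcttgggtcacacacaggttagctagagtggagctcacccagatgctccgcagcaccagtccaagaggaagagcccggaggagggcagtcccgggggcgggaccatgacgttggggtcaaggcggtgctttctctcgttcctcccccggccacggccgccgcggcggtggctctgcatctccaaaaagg

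RefSeq windows were found for 9 of the 10 members, as 10 windows; Epas1 was not matched. The window of Hif1a held 3 matches to ACGTG, the first window of Egln2 held 3, and those of Egln1 and Egln3 held 1 each. Windows of Hif3a, Arnt, Arnt2, Hif1an and Vhl and the second window of Egln2 held 0 matches. Of all 32851 windows, 6447 (19.62%) held a match. AGAACA, the half-site of the glucocorticoid response element, was in 18.97% of all windows and in 0 of the 10 member windows, on either strand. The full palindrome, AGAACA followed by NNN and TGTTCT, was in 3 of all windows (0.01%) and in 0 member windows. A match is a description of the letters, and the absence of one says nothing of binding outside this window.

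Reads assigned to genes numbered 16.04 to 25.49 M per hypothalamus library and 16.39 to 20.94 M per cortex library. Ribosomal-RNA-like genes took 30.37% to 42.81% of the reads of hypothalamus libraries and 1.28% to 2.99% of cortex libraries. Levels are therefore compared within a region in the deposited unit, reads scaled to a common library size (RPM), and between regions only after rescaling. Of the neural stem cell markers, 10 of 10 were at 1 RPM or more in every library. The hypothalamus markers Nkx2-1, Rax, Six6 and Sim1 averaged under 1 RPM in all 4 hypothalamus groups. The fifth, Six3, was uneven, at 0.139 to 9.48 RPM in vehicle hypothalamus libraries, and was higher in hypothalamus than in cortex after rescaling (log2 difference 1.56 ± 0.53, SE; adjusted p = 0.0273, limma). Both libraries of male hypothalamus replicate 2 went against their label in part. Xist stood at 30.1 RPM with dexamethasone and 26.4 RPM with vehicle. It was at most 0.768 RPM in the other 10 male libraries and at least 306 RPM in 12 female libraries. Ddx3y went with the male label in both, at 81.7 RPM with dexamethasone and 66.6 RPM with vehicle. It was at least 63.5 RPM in male libraries and at most 0.157 RPM in female libraries. In female cortex the replicates stood furthest apart, and replicate 1 deviated most from its groups. The 5 genes used to check the glucocorticoid response (Fkbp5, Zbtb16, Klf9, Tsc22d3 and Per1) passed the test as higher with dexamethasone in all 4 comparisons, except Tsc22d3 in male hypothalamus (log2 change 2.59, adjusted p = 0.0522 by limma).

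Hif3a, the alpha subunit that lacks a strong activation domain and whose splice forms can restrain the others, rose in all 4 comparisons and was the only member to do so. In female cortex it stood at 30.0, 48.6 and 40.1 RPM with dexamethasone, against 0.208, 0.806 and 0.563 RPM with vehicle (replicates 1, 2 and 3). Male cortex gave 30.7, 30.9 and 34.2 RPM with dexamethasone, against 0.548, 0.113 and 0.370 RPM with vehicle. Every treated library exceeded every vehicle library in both sexes. In female hypothalamus it stood at 21.7, 25.5 and 24.4 RPM with dexamethasone, against 0.267, 0.509 and 0.202 RPM with vehicle. Male hypothalamus gave 29.5, 12.2 and 20.8 RPM with dexamethasone, against 0.163, 0.414 and 0.352 RPM with vehicle. Here too the groups did not overlap, and male hypothalamus replicate 2 was the lowest of the 12 treated libraries. With vehicle the gene was close to the limit of detection: the 3 libraries of a group held 19 to 29 reads together, while treated groups held 1152 to 2244.

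The ratio of group means for Hif3a was 75.3 in female cortex, 92.9 in male cortex, 73.3 in female hypothalamus and 67.3 in male hypothalamus. The log2 change on the log2(RPM + 1) scale, which understates the change of a gene this low, was 4.73 ± 0.24 (SE) in female cortex (adjusted p = 0.00122), 4.63 ± 0.13 in male cortex (8.06e-09), 4.23 ± 0.15 in female hypothalamus (3.83e-05) and 3.98 ± 0.30 in male hypothalamus (0.00695), by limma with n = 3 against 3. The authors' deposited table gave Hif3a fold ratios of 74.7 in female cortex, 90.6 in male cortex, 73.0 in female hypothalamus and 64.5 in male hypothalamus. Leaving out 1 replicate number kept the change of Hif3a near its size but ended the call in 2 comparisons. In male hypothalamus it was 4.36 without the partly mismatched replicate 2 (adjusted p = 0.0901; 0 genes were then called in the whole table, and 360 had an unadjusted p under 0.05), 3.62 without replicate 1 (0.052) and 3.97 without replicate 3 (0.193). In female cortex it was 4.75 without replicate 1 (0.000155), 4.70 without replicate 2 (0.0888) and 4.73 without replicate 3 (0.2).

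**Figure D1:**
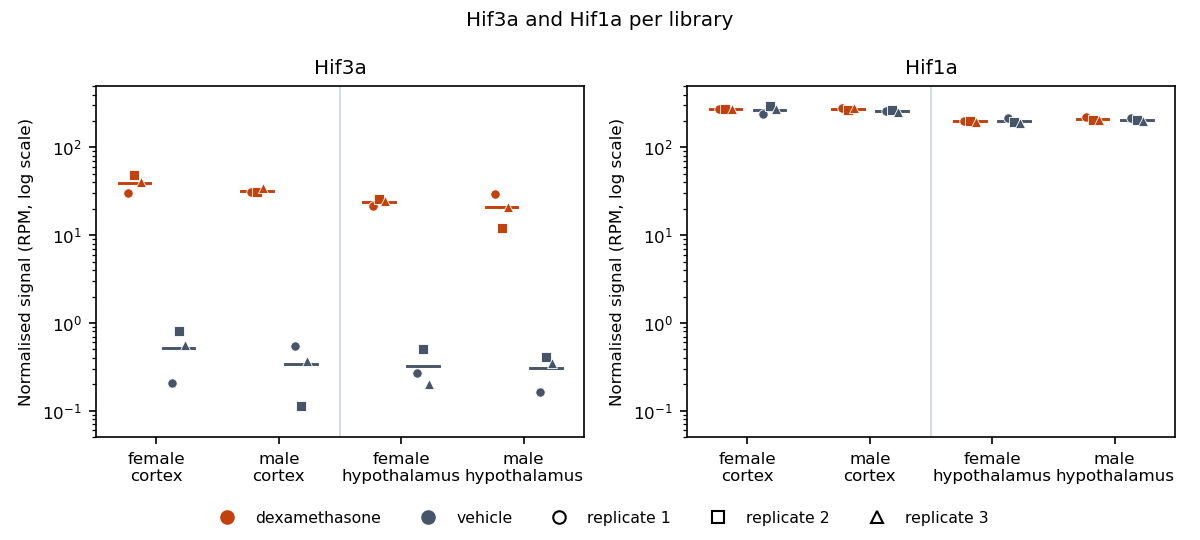
Normalised level of Hif3a and Hif1a in RPM, both on the same log axis, in each of the 24 libraries, dexamethasone left of vehicle in each region and sex; marker shapes are replicates and horizontal lines group means. Hif3a lay at 12.2 to 48.6 RPM in treated libraries and at 0.113 to 0.806 RPM in vehicle libraries, while the Hif1a groups overlapped in all 4 comparisons.

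Hif1a, the broadly expressed alpha subunit, showed no change that passed the test in any comparison. It stood at 276, 275 and 276 RPM in female cortex with dexamethasone, against 237, 295 and 272 RPM with vehicle. Male hypothalamus gave 220, 205 and 207 RPM with dexamethasone, against 214, 207 and 198 RPM with vehicle. Treated and vehicle libraries overlapped in all 4 comparisons. The 95% intervals of the log2 change of Hif1a by limma ran from -0.20 to 0.29 in female cortex, -0.02 to 0.19 in male cortex, -0.23 to 0.18 in female hypothalamus and -0.13 to 0.20 in male hypothalamus. Changes beyond these bounds were therefore outside the intervals, and smaller changes remain possible. On 1 scaling over the 24 libraries Hif1a varied least of the 10 members, from 195 to 275 RPM with a coefficient of variation of 9.23%, and Hif3a most, at 104%. Counting of Hif1a may include reads of an antisense gene, Gm15283, which shares 330 exon bases with it and stood at 0.11 to 2.32 RPM.

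Epas1, the alpha subunit that marks endothelial and some glial cells, fell in male cortex and passed the test in no other comparison. Male cortex gave 5.25, 4.31 and 4.45 RPM with dexamethasone, against 9.38, 9.24 and 9.94 RPM with vehicle, with no overlap. Its log2 change there was -0.90 ± 0.10 (SE; adjusted p = 8.18e-05, limma). In female cortex Epas1 stood at 5.20, 10.1 and 6.78 RPM with dexamethasone, against 11.5, 13.5 and 7.61 RPM with vehicle. Each treated library was below the vehicle library of its own number, although the groups overlapped; the log2 change was -0.51 ± 0.29 (adjusted p = 0.384), and with the replicate number as a block the adjusted p was 0.0368. Hypothalamus levels of Epas1 were 2.14 to 4.93 RPM with dexamethasone and 3.08 to 4.63 RPM with vehicle, with changes of -0.14 ± 0.22 in females (0.884) and -0.28 ± 0.16 in males (0.725, limma).

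Endothelial markers moved with Epas1 in cortex, as did mural and mesenchymal markers. In male cortex the 10 endothelial markers summed to 4.468 to 5.014 RPM per library with dexamethasone and 9.301 to 11.42 RPM with vehicle. Kdr, the receptor of Vegfa, averaged 2.01 ± 0.236 RPM with dexamethasone and 3.37 ± 0.135 RPM with vehicle there (SD, n = 3); Eng, Esam, Flt1 and Pecam1 passed the filter on low values only through the vehicle libraries, so that their lower level with dexamethasone is given without a count. In female cortex the sums were 3.826 to 4.535 RPM with dexamethasone and 6.197 to 9.812 RPM with vehicle. Cdh5 was at 0 in both male cortex groups and both female cortex groups, and Cldn5 was at 0 in both treated groups and in female vehicle. In hypothalamus the sums were 5.12 to 24.55 RPM with dexamethasone and 6.198 to 26.43 RPM with vehicle. The 12 mural and mesenchymal markers summed to 7.603 to 9.772 RPM in male cortex with dexamethasone and 12.16 to 13.25 RPM with vehicle. In female cortex they summed to 5.48 to 9.157 RPM and 9.76 to 12.41 RPM. Genes at 1 RPM or more numbered 12808 to 12854 in treated libraries of male cortex and 13179 to 13244 in its vehicle libraries. Female cortex gave 12864 to 13102 with dexamethasone and 13235 to 13350 with vehicle. The part of endothelial or mural cells in the fall of Epas1 was not tested. In bulk RNA fewer cells of a type and less RNA per cell cannot be told apart.

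Per kilobase of annotated exon, Hif1a remained the major alpha subunit. Hif3a took 10.9% ± 2.22 of the alpha-subunit RNA in female cortex with dexamethasone, against 0.159% with vehicle. In male cortex the share of Hif3a was 9.09% ± 0.484 against 0.113%, in female hypothalamus 9.44% ± 0.832 against 0.140%, and in male hypothalamus 7.78% ± 2.75 against 0.131% (SD, n = 3, dexamethasone against vehicle). Hif1a per kilobase was thus 8.25 to 12.97 times Hif3a in treated groups and 755.5 to 1342 times Hif3a in vehicle groups. Epas1 held 2.42% in female cortex with dexamethasone against 4.11% with vehicle, and 1.60% in male cortex with dexamethasone against 3.72% with vehicle.

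**Figure D2:**
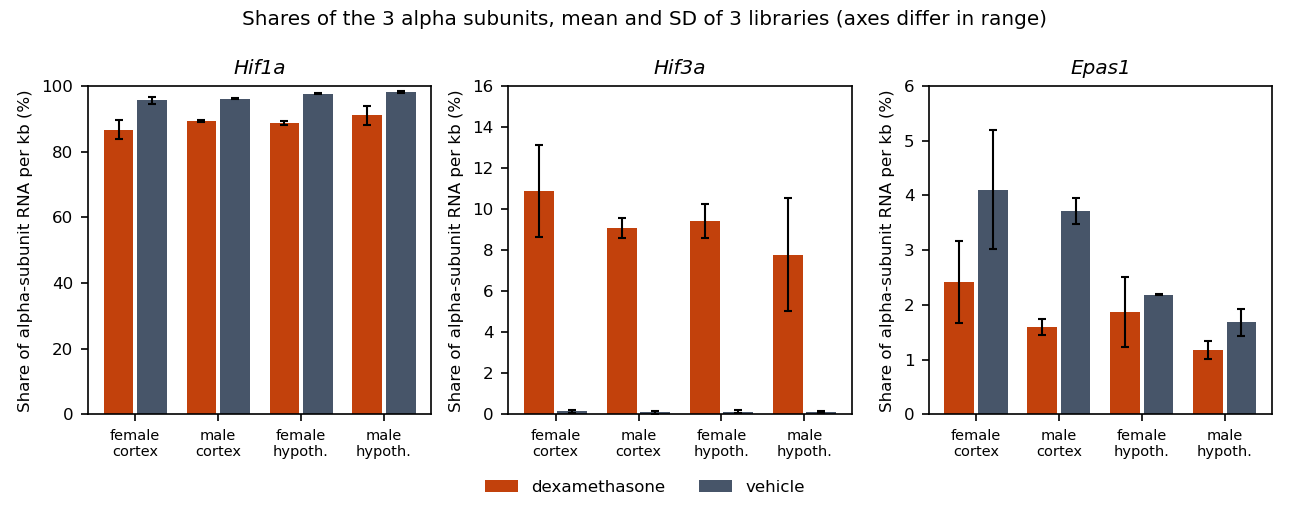
Share of the length-scaled RNA of the 3 alpha subunits held by Hif1a, Hif3a and Epas1, in percent, dexamethasone left of vehicle; bars are means and error bars SDs of 3 libraries, and the 3 axes differ in range. Hif3a held 7.78% to 10.9% in treated groups and 0.113% to 0.159% in vehicle groups, and Hif1a held most of the rest.

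Of the stable partners, Arnt2, the form known from neurons and the developing hypothalamus, rose in male cortex. Its libraries gave 143, 141 and 132 RPM with dexamethasone, against 104, 98.8 and 111 RPM with vehicle, without overlap. The log2 change of Arnt2 was 0.40 ± 0.06 (SE; adjusted p = 0.000386, limma), and the adjusted p was 0.076 with the spread shared over 12 libraries. Female cortex gave 138, 204 and 181 RPM with dexamethasone, against 113, 157 and 144 RPM with vehicle. The groups overlapped because the replicates differed in level, yet each treated library exceeded the vehicle library of its own number. The female change was 0.33 ± 0.19 (adjusted p = 0.392; 0.0039 with the replicate block). In hypothalamus Arnt2 stood at 78.7, 64.9 and 85.8 RPM with dexamethasone in females, against 81.2, 88.1 and 88.3 RPM with vehicle. Males gave 63.3, 76.3 and 71.8 RPM with dexamethasone, against 68.8, 86.5 and 83.5 RPM with vehicle. The groups overlapped in both sexes, and the log2 changes were -0.17 ± 0.12 in females (0.705) and -0.17 ± 0.12 in males (0.767). Gm30873, an antisense gene that shares 214 exon bases with Arnt2, is not among the entries used here.

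Arnt, the general partner, gave 55.3, 45.0 and 45.3 RPM in female cortex with dexamethasone, against 44.9, 39.7 and 39.2 RPM with vehicle. All 3 treated libraries exceeded all vehicle libraries, by a narrow margin. The log2 change was 0.23 ± 0.12 (SE; adjusted p = 0.361, limma; 0.035 with the replicate block). The changes of Arnt were 0.10 in male cortex (adjusted p = 0.279), -0.25 in female hypothalamus (0.75) and -0.23 in male hypothalamus (0.758). Arnt2 held 72.65% to 78.67% of the length-scaled RNA of the pair in the 8 groups.

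The prolyl hydroxylases moved in different directions in cortex. Egln3, the hydroxylase known as the most strongly hypoxia-induced of the 3, fell in male cortex, where it stood at 23.3, 38.7 and 37.5 RPM with dexamethasone, against 48.4, 58.1 and 59.9 RPM with vehicle. The log2 change was -0.75 ± 0.17 (SE; adjusted p = 0.00432, limma). Female cortex gave 33.5, 25.3 and 41.95 RPM with dexamethasone, against 49.3, 60.7 and 70.1 RPM with vehicle. In both sexes every treated library was below every vehicle library. The female change was -0.83 ± 0.22 (adjusted p = 0.091; 0.00144 with the replicate block; 0.0436 without replicate 1, 0.434 without replicate 2 and 0.528 without replicate 3). The authors' deposited table gave Egln3 fold ratios of 0.560 in female cortex (false discovery rate 0.00831) and 0.599 in male cortex (0.0264). For the members that rose in male cortex beside Hif3a, the authors' deposited table gave false discovery rates of 0.168 for Arnt2, 0.529 for Egln2 and 0.947 for Egln1.

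In hypothalamus Egln3 was low with and without dexamethasone. Females gave 16.3, 10.6 and 15.4 RPM with dexamethasone, against 19.3, 13.04 and 13.2 RPM with vehicle. Males gave 18.8, 7.59 and 12.6 RPM with dexamethasone, against 16.5, 11.5 and 13.6 RPM with vehicle. The groups overlapped in both sexes, and the 95% intervals of the log2 change, -0.59 to 0.39 in females and -0.87 to 0.55 in males by limma, were wide for Egln3. Among the 3 prolyl hydroxylases per kilobase, Egln3 held 16.5% ± 3.22 in female cortex with dexamethasone against 26.7% ± 1.99 with vehicle, and 16.3% ± 2.92 in male cortex with dexamethasone against 27.8% ± 1.89 with vehicle. In hypothalamus its share was 13.5% with dexamethasone against 14.5% with vehicle in females, and 12.5% against 13.3% in males.

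Egln2, the hydroxylase found mostly in the nucleus, rose in male cortex, with 60.7, 64.4 and 61.5 RPM with dexamethasone, against 54.8, 52.4 and 48.7 RPM with vehicle. These groups did not overlap; the log2 change was 0.26 ± 0.06 (SE; adjusted p = 0.00672, limma) and was lost without replicate 3 (0.0651) and with the spread shared over 12 libraries (0.218). Egln1, the main sensor of oxygen in most cells, gave 135, 156 and 152 RPM in male cortex with dexamethasone, against 116, 138 and 128 RPM with vehicle. Its groups overlapped although each treated library exceeded its own number, and the change of 0.21 ± 0.08 (0.0422, limma) was lost without replicate 2 (0.0626), without replicate 3 (0.177), and in the edgeR test on recovered reads (0.108) and 5 further settings. In female cortex the changes were 0.16 for Egln2 (0.686) and -0.05 for Egln1 (0.906), and in hypothalamus those of both genes lay between -0.08 and 0.06, none past the test.

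Hif1an, the asparaginyl hydroxylase, passed the limma test in no comparison, and in male hypothalamus its groups did not overlap. Male hypothalamus gave 23.6, 23.9 and 25.2 RPM with dexamethasone, against 30.6, 34.5 and 34.9 RPM with vehicle, with no overlap. The log2 change was -0.44 ± 0.09 (SE), with an adjusted p of 0.171 by limma and 0.00301 with the replicate block; it was -0.41 without the partly mismatched replicate 2 (adjusted p = 1). Female hypothalamus gave 22.5, 21.7 and 33.3 RPM with dexamethasone, against 28.8, 40.1 and 35.9 RPM with vehicle. Each treated library was below its own number although the groups overlapped, and the change of Hif1an was -0.43 ± 0.19 (0.578; 0.0954 with the block). In cortex the changes were 0.09 in females (0.741) and 0.08 in males (0.313).

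Vhl, the substrate-binding part of the ubiquitin ligase, passed the test in no comparison. Its log2 changes were -0.09 ± 0.29 in female cortex (adjusted p = 0.917), -0.13 ± 0.08 in male cortex (0.217), -0.06 ± 0.14 in female hypothalamus (0.926) and 0.08 ± 0.18 in male hypothalamus (0.935, limma). Female cortex shows how far replicates differed: Vhl stood at 70.9, 112 and 94.6 RPM with dexamethasone, against 64.0, 124 and 113 RPM with vehicle.

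**Figure D3:**
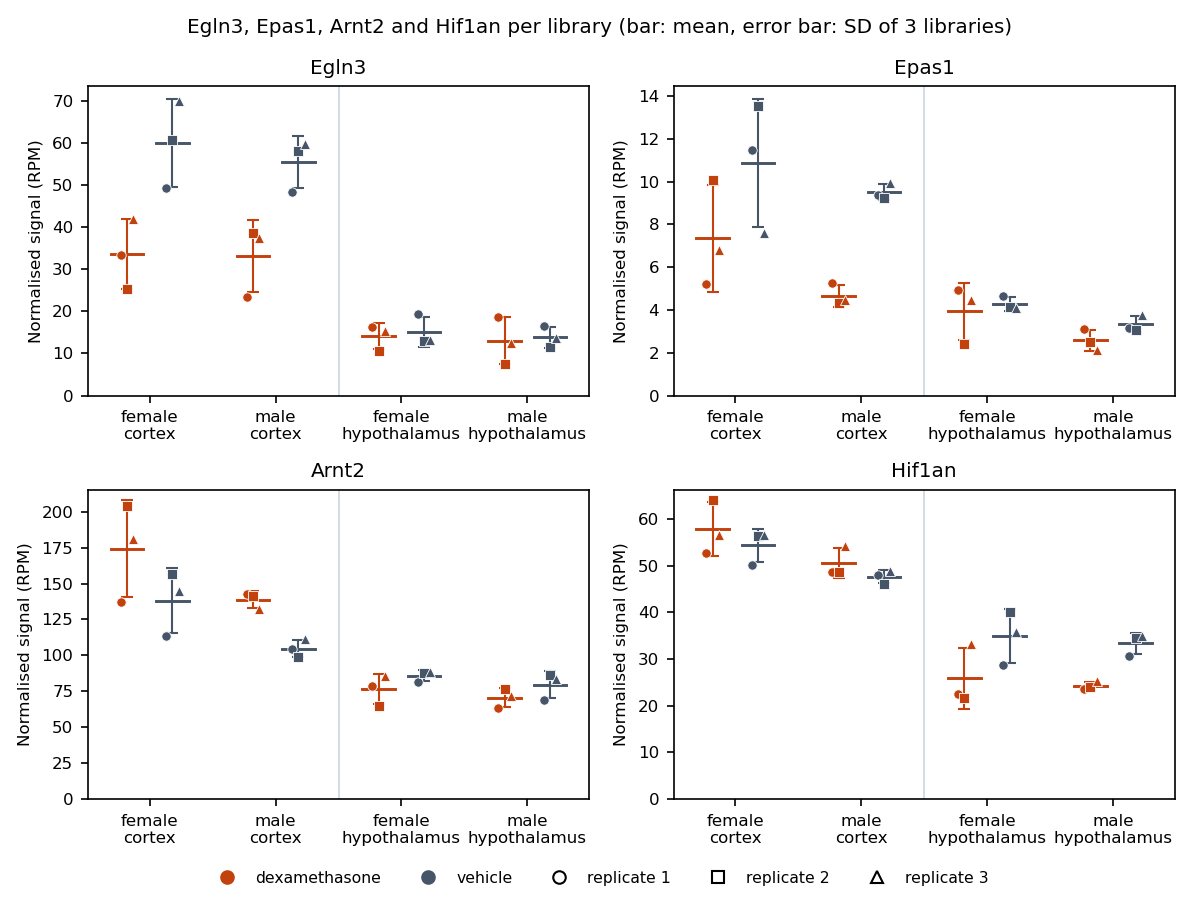
Normalised level of Egln3, Epas1, Arnt2 and Hif1an in RPM per library, dexamethasone left of vehicle; horizontal bars are means and error bars SDs of 3 libraries, and the light line parts cortex from hypothalamus. In male cortex the treated libraries of Egln3 and Epas1 lay below and those of Arnt2 above all vehicle libraries, and in male hypothalamus those of Hif1an lay below (23.6 to 25.2 RPM, against 30.6 to 34.9 RPM).

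All 10 members passed the filter on low values in each table, Hif3a only through the treated libraries, so the filter favoured it. With no filter on low values Hif3a was still called in all 4 comparisons. Of the 10, limma called 1 in female cortex (higher), where 4.42% of all genes tested were called, 1.4% as higher and 3.02% as lower. It called 6 in male cortex (Hif3a, Arnt2, Egln1 and Egln2 higher, Epas1 and Egln3 lower), where 47.6% of all genes were called, 26.7% as higher and 20.9% as lower, so the share of members there was near that of all genes. It called 1 in female hypothalamus (0.841% of all genes, 0.793% as higher and 0.048% as lower) and 1 in male hypothalamus (0.226%, all as higher), each time Hif3a as higher. With the replicate number as a block the members called were 5 in female cortex (38.1% of all genes), 6 in male cortex (52%), 1 in female hypothalamus (7.14%) and 2 in male hypothalamus (13.1%). Groups without overlap were seen for 3 members in female cortex (28.6% of all genes), 5 in male cortex (56.9%), 1 in female hypothalamus (15.2%) and 2 in male hypothalamus (13.5%).

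**Figure D4:**
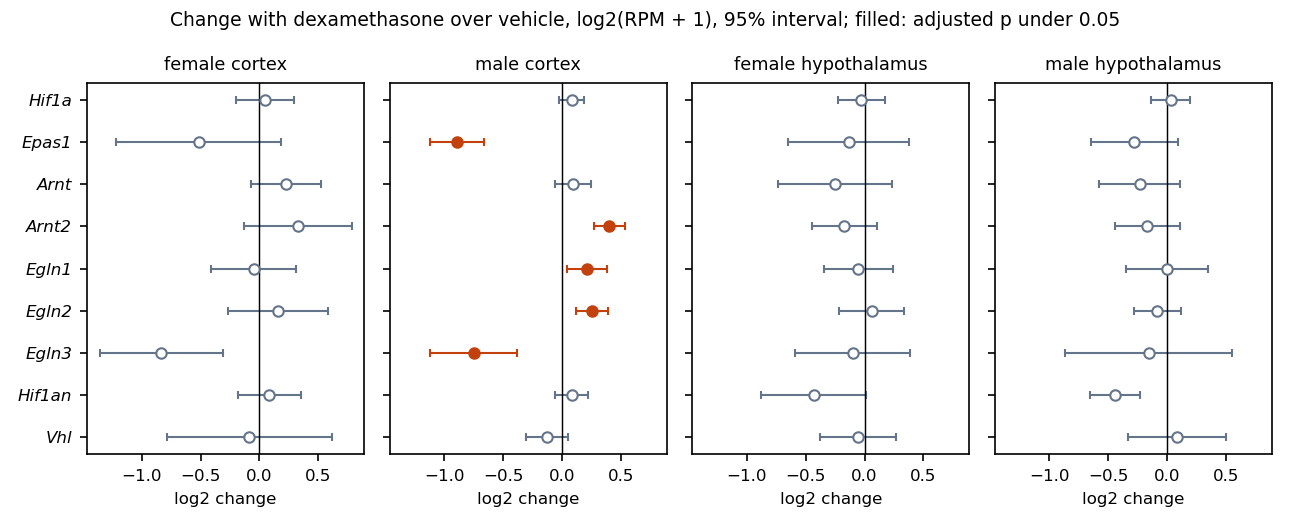
Log2 change of 9 members, dexamethasone over vehicle, on the log2(RPM + 1) scale in the 4 comparisons; points are limma estimates, filled where the adjusted p is under 0.05, and bars are 95% intervals. The changes lie between -0.90 and 0.40 and only male cortex has filled points among these 9; Hif3a, at 3.98 to 4.73, is not drawn.

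Whether the response differed between regions was tested on reads rescaled over the 12 libraries of each sex, as the change in hypothalamus minus the change in cortex. Among males, 3 members differed, all lower, where 8.2% of all genes differed, 4.52% as higher and 3.68% as lower. The difference was -0.57 ± 0.13 for Arnt2 (SE; adjusted p = 0.0232, limma), -0.53 ± 0.10 for Hif1an (0.00954) and -0.34 ± 0.09 for Egln2 (0.0478). Without replicate number 2 in both regions, Arnt2 gave -0.53 (0.255), Hif1an -0.51 (0.218) and Egln2 -0.34 (0.354); without number 3 they gave -0.61 (0.158), -0.47 (0.125) and -0.34 (0.21), and without number 1 Egln2 gave -0.33 (0.147). With the spread shared over 24 libraries none passed (0.14 for Arnt2, 0.174 for Hif1an and 0.335 for Egln2). Among females, limma called 0 members, where 0.692% of all genes were called (0.589% as higher and 0.103% as lower) and 2 members had an unadjusted p under 0.05; edgeR and DESeq2 also called 0. With the replicate block in limma, Arnt2 differed by -0.55 ± 0.13 (adjusted p = 0.019) and Egln3 by 0.68 ± 0.19 (0.0373). The block called 2102 of all 13582 genes there. Pairing by number was not clear for replicate 3 of female cortex.

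For Egln3 and Epas1, which fell in male cortex and passed in no hypothalamus comparison, the difference among males did not pass by limma: 0.58 ± 0.39 for Egln3 (adjusted p = 0.419) and 0.58 ± 0.18 for Epas1 (0.0736, limma). The response of Hif3a differed by -0.20 ± 0.35 among males (0.797) and -0.09 ± 0.27 among females (0.944), with 95% intervals of -0.96 to 0.56 and -0.67 to 0.50. Between the sexes, males minus females, limma called 0 of the 10 members and 0 genes of the whole table in cortex (0%; 169 genes at an unadjusted p under 0.05) and in hypothalamus (0%; 33 genes). EdgeR and DESeq2 called 0 in both regions.

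Without treatment, 9 members could be tested between regions, after rescaling over the vehicle libraries. Hif3a was below the filter. The levels given next are on 1 scaling over the 24 libraries. Egln3 was lower in hypothalamus, at 19.2 ± 4.5025 RPM in females and 17.2 ± 3.12 RPM in males, against 47.8 ± 7.41 RPM and 45.1 ± 5.20 RPM in cortex of the same sexes (SD, n = 3). Its log2 difference, hypothalamus minus cortex, was -1.32 ± 0.13 (SE; adjusted p = 8.37e-06, limma). Epas1 (-0.67 ± 0.12, 0.000782) and Egln2 (-0.31 ± 0.07, 0.00343) were also lower in hypothalamus, and Hif1a was higher (0.26 ± 0.06, 0.00248). The members passing were 4 of 9 (1 higher, 3 lower), where 56.4% of all genes passed (28.1% as higher and 28.2% as lower), and region and library composition cannot be told apart here.

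The genes whose level followed Hif3a most closely over the 24 libraries were Fam107a (Pearson r = 0.992), Zbtb16 (0.984), Klf9 (0.983), Map7d2 (0.981) and Fkbp5 (0.978), of 13931 genes compared on 1 scaling. The libraries fall into treated and vehicle groups, so these values describe a shared difference between those groups. Zbtb16, Klf9 and Fkbp5 are well-known glucocorticoid-induced genes. Fkbp5, which encodes a chaperone partner that restrains the glucocorticoid receptor, averaged 341 RPM in female cortex with dexamethasone against 31.9 RPM with vehicle, and 191 RPM in male hypothalamus with dexamethasone against 35.5 RPM with vehicle.

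Of 11 genes that regulate turnover of the alpha subunits outside the members, limma called 1 in female cortex (lower) and 6 in male cortex (3 higher, 3 lower), and 0 in either hypothalamus comparison, where 4.42%, 47.6%, 0.841% and 0.226% of all genes were called. In male cortex the share was near that of all genes, and without replicate 3 the calls were 0 higher and 3 lower. The replicate block called 3 lower in female cortex (38.1% of all genes). It called 1 lower in each hypothalamus comparison (7.14% of all genes in females and 13.1% in males). Every call in female cortex in this list, and among the coregulators, relatives, targets and dioxygenases described next, was lost without replicate 2 (2 genes then called in the whole table) and without replicate 3 (0 genes), while without replicate 1 the table held 1634 calls. Siah2, a ubiquitin ligase that destroys prolyl hydroxylases, including the product of Egln3, fell most. It averaged 14.6 ± 2.23 RPM in female cortex with dexamethasone against 54.3 ± 5.07 RPM with vehicle, and 18.7 ± 0.565 RPM in male cortex with dexamethasone against 58.8 ± 3.84 RPM with vehicle. The log2 changes of Siah2 were -1.83 ± 0.14 (SE; adjusted p = 0.00368) and -1.60 ± 0.07 (1.2e-07, limma). In hypothalamus its changes were -0.15 in females (0.751) and -0.08 in males (0.923), and the difference between regions passed in both sexes, at 1.62 ± 0.19 in females (0.0043) and 1.51 ± 0.16 in males (0.000281). In male cortex Siah1a, its relative, and Wsb1, a ubiquitin ligase adaptor that acts on Vhl, also fell, at -0.35 ± 0.07 (0.00167) and -0.35 ± 0.05 (0.000288); Cul2, Os9 and Usp20 rose by 0.15 to 0.24, and none of these rises passed without replicate 3.

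Of 12 coregulators, limma called 2 of 11 tested in female cortex (both lower), 9 of 12 in male cortex (4 higher, 5 lower; 47.6% of all genes) and 0 of 11 in either hypothalamus comparison. In female cortex 4.42% of all genes were called. Without replicate 2 or 3 in male cortex 2 were higher and 5 lower. The block called 6 in female cortex (2 higher and 4 lower, with 38.1% of all genes called). In each hypothalamus comparison it called Hdac5 alone, as lower (7.14% of all genes in females and 13.1% in males). Cited2, which competes with the alpha subunits for the coactivators p300 and CBP, averaged 9.76 ± 1.26 RPM in female cortex with dexamethasone against 33.4 ± 11.03 RPM with vehicle, and 7.37 ± 1.37 RPM in male cortex with dexamethasone against 38.5 ± 4.23 RPM with vehicle. It fell, at a log2 change of -1.63 ± 0.25 in female cortex (SE; adjusted p = 0.03) and -2.25 ± 0.13 in male cortex (8.53e-07, limma). In hypothalamus Cited2 changed by 0.29 in females (0.717) and 0.24 in males (0.678), neither past the test, and the difference between regions was 1.87 ± 0.35 in females (0.0455) and 2.47 ± 0.18 in males (3.79e-05). Hdac5, a histone deacetylase, fell, at a log2 change of -1.04 ± 0.20 in female cortex (0.045) and -1.29 ± 0.08 in male cortex (8.95e-07). In male cortex Cited4, a relative of Cited2, fell, at a log2 change of -1.20 ± 0.15 (0.000148, limma). It averaged 0.405 RPM with dexamethasone against 2.22 RPM with vehicle, and so passed the filter on low values only through the vehicle libraries. The 5 lower coregulators in male cortex include Cited4, so that count was favoured by the filter. Ncoa1, a coactivator of nuclear receptors, rose in male cortex by 0.64 ± 0.06 (2.36e-05, limma).

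Among 11 bHLH-PAS relatives, which share the fold of the alpha subunits and the Arnt proteins, limma called 3 of 9 tested in female cortex (2 higher, 1 lower), 4 of 7 in male cortex (2 higher, 2 lower), and 0 of 5 and 0 of 6 in female and male hypothalamus. The shares of all genes called were 4.42% in female cortex and 47.6% in male cortex, the second near that of the list. Npas4, an activity-induced factor that pairs with Arnt2, fell, at a log2 change of -1.61 ± 0.31 in female cortex (SE; adjusted p = 0.0484) and -1.88 ± 0.14 in male cortex (3.79e-06, limma). It was low throughout and passed the filter on low values in cortex only through the vehicle libraries, at 0.0478 RPM in female cortex and 0.0893 RPM in male cortex with dexamethasone, against 2.39 RPM and 3.01 RPM with vehicle. The counts of lower relatives in both cortex comparisons include it, so they were favoured by the filter. In hypothalamus Npas4 gave -0.80 in females (0.519; 0.0157 with the block) and -0.67 in males (0.72; 0.0123). Npas3, a factor of neural progenitors, rose by 0.53 ± 0.08 in female cortex (0.032) and 0.44 ± 0.06 in male cortex (0.000164), and Npas2, a relative of Clock, by 1.09 ± 0.22 (0.0494) and 0.82 ± 0.17 (0.00305). Arntl2, a relative of the clock gene Arntl, fell in male cortex, at -0.66 ± 0.11 (0.000877), and in female cortex it gave -0.31 (0.585).

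Of 33 known targets of the factors, limma called 3 of 30 tested in female cortex (3 lower, 0 higher) and 17 of 31 in male cortex (16 lower, 1 higher), against 0 of 30 in female hypothalamus and 1 of 30 in male hypothalamus (Adm, higher). Of all genes, 4.42% were called in female cortex (3.02% as lower) and 47.6% in male cortex (20.9% as lower). The median log2 change of the tested targets was -0.443 in female cortex and -0.454 in male cortex, where the medians of all genes were 0.0242 and 0.044. In hypothalamus it was -0.0454 in females and 0.0553 in males, where all genes gave 0.00868 and -0.00324. With the block, female cortex gave 2 higher and 19 lower (38.1% of all genes called). Female hypothalamus gave 3 higher and 2 lower (7.14% of all genes), and male hypothalamus 3 higher and 4 lower (13.1%). In female cortex pairing by number was not clear for replicate 3. Without replicate 1 of female cortex 6 targets were lower, and without replicate 2 or replicate 3 the count was 0. In male cortex 13 to 19 targets were lower without 1 replicate number, and in male hypothalamus 0 passed without replicate 2.

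Pfkfb3, a glycolytic regulator, averaged 36.0 ± 8.52 RPM in female cortex with dexamethasone against 128 ± 11.5 RPM with vehicle, and 35.2 ± 11.8 RPM in male cortex with dexamethasone against 130.0 ± 23.0 RPM with vehicle. It fell, at a log2 change of -1.82 ± 0.18 (SE; adjusted p = 0.0078) in females and -1.89 ± 0.21 (7.05e-05, limma) in males. Stc2, a secreted glycoprotein, fell, at a log2 change of -2.15 ± 0.42 in female cortex (0.0484) and -2.02 ± 0.13 in male cortex (1.89e-06). Bhlhe40, a transcriptional repressor, fell, at a log2 change of -1.46 ± 0.23 (0.034) and -1.08 ± 0.13 (0.000101), and Ankrd37 gave -1.28 ± 0.37 in female cortex (0.11) and fell, at a log2 change of -1.54 ± 0.27 in male cortex (0.00116). In hypothalamus none of Pfkfb3, Stc2, Bhlhe40 and Ankrd37 passed, with Pfkfb3 at -0.44 in females (0.679; 0.025 with the block) and -0.38 in males (0.596; 0.00993).

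Vegfa and Adm were added after their values were seen, as the best-known target and the called target of opposite direction. Vegfa, the main angiogenic factor, averaged 174 ± 89.0 RPM in female cortex with dexamethasone against 386 ± 69.3 RPM with vehicle, and 158 ± 59.9 RPM in male cortex with dexamethasone against 361 ± 68.9 RPM with vehicle. Its log2 change was -1.30 ± 0.44 in females (adjusted p = 0.162; 0.003 with the block), and it fell, at a log2 change of -1.25 ± 0.26 in males (0.00282, limma). Adm, the vasodilator peptide adrenomedullin, rose in male hypothalamus, to 29.9 ± 1.74 RPM with dexamethasone against 15.1 ± 0.736 RPM with vehicle (0.94 ± 0.09, adjusted p = 0.0201). Female hypothalamus gave 36.4 ± 7.38 RPM with dexamethasone against 16.3 ± 5.44 RPM with vehicle (1.15 ± 0.26, 0.147; 0.000362 with the block). In male cortex Adm fell, with 57.0 ± 12.2 RPM with dexamethasone against 85.1 ± 11.3 RPM with vehicle (-0.58 ± 0.14, 0.00726).

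The difference in response between regions was tested for each target. Among males 4 of 31 passed, where 8.2% of all genes did, all with the higher change in hypothalamus: Adm (1.52 ± 0.20, adjusted p = 0.000956), Stc2 (1.63 ± 0.32, 0.0112), Pfkfb3 (1.497 ± 0.31, 0.0141) and Bhlhe40 (0.80 ± 0.21, 0.0377, limma). Among females 0 of 30 passed by limma. With the block 13 did, all with the higher change in hypothalamus. The block called 2102 of all 13582 genes tested there, 979 as higher and 1123 as lower. Glial markers and the sum of neuronal markers moved with the target counts in male cortex, where 26.7% of all genes were called higher. Of the oligodendrocyte markers 7 of 7 rose there, 3 without replicate 3, with sums of 1956 to 2014 RPM with dexamethasone and 1344 to 1488 RPM with vehicle. Of the astrocyte markers 6 of 8 rose, 2 without replicate 2, with sums of 1691 to 2053 RPM with dexamethasone and 1364 to 1536 RPM with vehicle. Gjb6, which is among the 8, passed the filter on low values in both cortex comparisons only through the treated libraries. In female cortex 0 of either glial list passed by limma. With the block 5 of 7 oligodendrocyte and 6 of 8 astrocyte markers were higher. The block called 38.1% of all genes there, with 2648 of 13314 as higher. Neuronal markers summed to 1025 to 1199 RPM in male cortex with dexamethasone and 782.6 to 842.4 RPM with vehicle. In female cortex the sums were 1155 to 1377 RPM with dexamethasone and 740.6 to 998.6 RPM with vehicle. Without replicate 1 of male cortex, 1 of 5 neuronal markers tested was higher and 1 lower. Without replicate 2 or replicate 3, 1 was higher and 0 lower. Their median log2 changes without replicates 1, 2 and 3 were 0.015, -0.192 and 0.128, so the list did not rise as a whole. The medians of all genes were 0.051, 0.042 and 0.035. Of 10 neural stem cell markers, 4 were higher and 4 lower without replicate 1. Without replicate 2 it was 2 higher and 3 lower, and without replicate 3, 1 higher and 3 lower. The part of cell composition in the target counts was not tested.

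**Figure D5:**
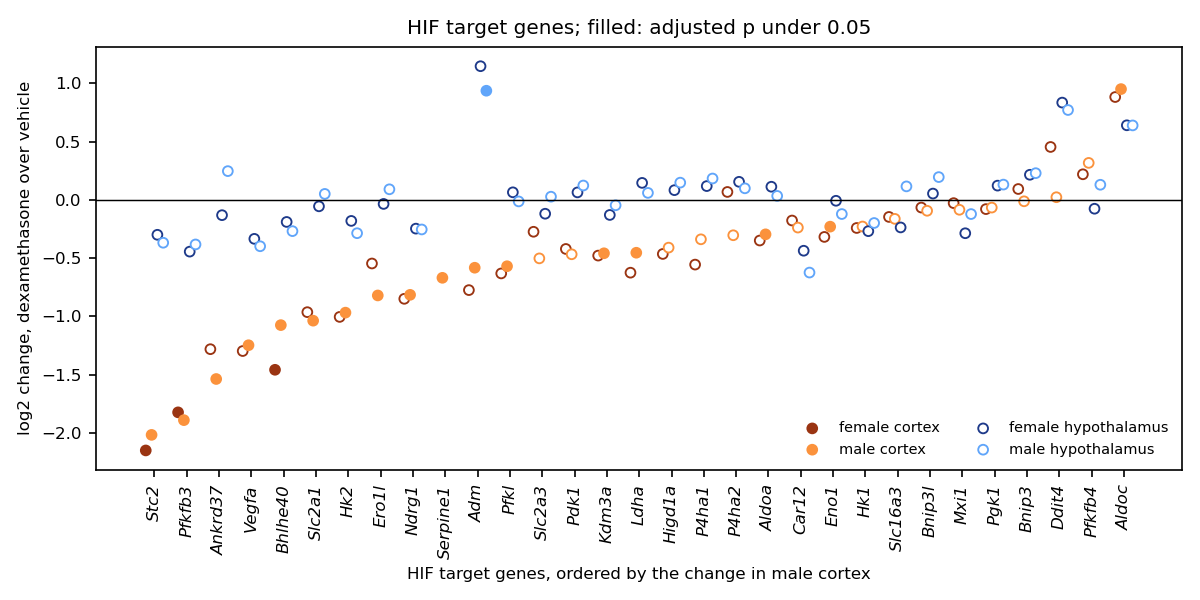
Log2 change of the tested targets of the hypoxia-inducible factors, dexamethasone over vehicle, in the 4 comparisons; genes are ordered by their change in male cortex, colours mark the comparison, and points are filled where the limma test passed. Most cortex points lie below 0 (25 of 30 in females and 28 of 31 in males), and the hypothalamus points lie on both sides (17 of 30 below 0 in females and 12 of 30 in males).

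Other oxygen-dependent dioxygenases, which share their chemistry with the prolyl hydroxylases, were counted from a list of 10. In female cortex 3 were lower and 0 higher, in male cortex 3 lower (Jmjd6, Kdm6b and Tet3) and 3 higher (Kdm4a, Kdm5b and Tet2), and in either hypothalamus comparison 0 passed by limma, where 4.42% of all genes were called in female cortex and 47.6% in male cortex, the second near the share of the list; with the block Tet3 was lower in male hypothalamus. Kdm6b, which removes a repressive methyl mark of histone H3, fell, at a log2 change of -1.57 ± 0.16 in female cortex (SE; adjusted p = 0.00918) and -1.67 ± 0.07 in male cortex (1.57e-07). It averaged 20.6 RPM in female cortex with dexamethasone against 63.5 RPM with vehicle, and 17.7 RPM in male cortex with dexamethasone against 58.4 RPM with vehicle. The difference of Kdm6b between regions was 1.30 ± 0.24 in females (0.0446) and 1.19 ± 0.33 in males (0.0461). Jmjd6 fell, at a log2 change of -0.996 ± 0.15 (0.0314) and -0.85 ± 0.12 (0.000361) in female and male cortex, and Tet3, which oxidises methylated cytosine, at -0.61 ± 0.09 (0.0285) and -0.46 ± 0.06 (0.000199).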

How the data were processed

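Per the labels' protocols, total RNA was extracted with Trizol and sequenced with a stranded total RNA kit, on 2 lanes per sample. Per the submitters' processing notes, TopHat2 (2.0.13 and 2.0.9), HTSeq and GRCm38 were used; annotation and strand setting are not given in the sources used here. The authors deposited a normalized signal per gene (RPM, scaled to a library size), and, per the file headers, a fold ratio from edgeR, log2 fold changes and p-values with their adjustment. All signal values (100%) were whole multiples of 1 read within 0.01 read, so read counts were recovered from the deposited values. Gene entries turned into dates numbered 27; 4 duplicates were dropped.

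The main test was limma 3.58.1 (R 4.3.3) on log2(signal + 1), kept where 3 or more libraries reached 1 RPM, with Benjamini-Hochberg adjusted p under 0.05 over all genes. It replaced the count test because the unit is a normalized signal. Differences between regions or sexes were interaction terms after TMM rescaling. Alternatives were edgeR 4.0.16 and DESeq2 1.42.0 on recovered reads, other pseudocounts, filters, scalings and spreads, a replicate block, and leaving out each replicate; edgeR with the block and list counts without each replicate were added after seeing the data. Same-numbered libraries deviated together in female hypothalamus (correlations of 0.61 to 0.75) and male hypothalamus (0.66 to 0.77). In female cortex replicates 1 and 2 did so (0.87 and 0.82). Replicate 3 there correlated 0.494 with its own number and 0.492 with another. Block values are given for these comparisons. The p-values measure the spread between the 3 replicates. Exon lengths came from GENCODE (GRCm38). All 10 members are named; of each list, the counts and up to 4 genes with the largest called change, the 5 glucocorticoid check genes and the 5 genes most correlated with Hif3a. Members and lists were chosen with earlier results of these data known. Simulated data were used to test the scripts.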

Additional observations from a re-analysis of the deposited data

Results flagged for a closer look

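Among males the response to dexamethasone differed between hypothalamus and cortex for 3 members, by the interaction term itself (limma, n = 3 a group). The log2 difference was -0.57 for Arnt2, where the change was -0.17 in hypothalamus and 0.40 in cortex. It was -0.53 for Hif1an, where the change was -0.44 in hypothalamus and 0.08 in cortex. It was -0.34 for Egln2, where the change was -0.08 in hypothalamus and 0.26 in cortex. The differences between females ran the same way, at -0.55 for Arnt2, -0.57 for Hif1an and -0.14 for Egln2, with adjusted p of 0.359, 0.378 and 0.863. The males include replicate 2 of hypothalamus, whose Xist level goes against its label. None of the 3 differences passed without replicate number 2, and none passed without number 3.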

How the results depend on the processing

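The 4 comparisons and 2 region differences were recomputed under every alternative listed. In female cortex the members called were 2 with DESeq2, 2 with the spread of 12 libraries shared, 5 with the replicate block and 5 with edgeR and the block, and 0 to 2 without 1 replicate; genes called were 1732, 2506, 5068 and 5070, and 0 to 1634. In male cortex the shared spread gave 3 members and 2823 genes. There the numbers paired the libraries only in part (correlations of 0.36, 0.02 and 0.39, and at most 0.034 with another number). The block gave 6 members and 6868 genes in male cortex. In female hypothalamus genes called were 291 with DESeq2, 892 with the block, 908 with edgeR and the block, and 16 to 17 without 1 replicate. In male hypothalamus members called were 2 with DESeq2, 2 with the block, 2 with edgeR and the block, and 0 without any 1 replicate; genes were 242, 1624 and 1707, and 0 to 7, and 93 with the shared spread. For the female region difference the block gave 2 members, as did edgeR with it; genes were 2102 and 2007, 421 with DESeq2, 532 with 24 libraries sharing the spread, and 0 to 47 without 1 replicate. For the male one the block gave 6 members, although male cortex numbers paired only in part. Egln3 at 0.58 (adjusted p = 0.0255, limma) and Epas1 at 0.58 (0.035) were among them. The 24-library spread gave 0 members, and leaving out 1 replicate 0 to 2. Genes were 3517 with the block, 3118 with edgeR and the block, 541 with the shared spread, and 100 to 578 without 1 replicate. The cortex sex difference gave 0 to 25 genes without 1 replicate. The cause of these shifts was not tested, but leaving out a replicate leaves 2 libraries a group.

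Of 688 recomputed values of the member changes tracked one by one, 623 kept direction and side of the threshold, 30 lost the call, 22 gained it and 13 changed sign. Egln1 in male hypothalamus was 0.01 with edgeR and with DESeq2. Without 1 replicate, changes that crossed 0 ran from -0.04 to 0.12 for Hif1a, -0.18 to 0.04 for Egln1 and -0.20 to 0.00083 for Vhl in female cortex; from -0.06 to 0.02 for Hif1a, -0.26 to 0.09 for Epas1, -0.15 to 0.11 for Egln1 and -0.13 to 0.04 for Vhl in female hypothalamus; from -0.05 to 0.09 for Egln1 and -0.32 to 0.04 for Egln3 in male hypothalamus; and for Hif3a from -0.17 to 0.04 in the female and -0.71 to 0.28 in the male region difference. None of these passed the test with all libraries. In the female region difference Epas1 (-0.0474 to 0.645), Egln1 (-0.174 to 0.1) and Vhl (-0.0654 to 0.0801) also crossed 0 and never passed. Depth limits Hif3a with vehicle, at 19 to 29 reads a group, so its ratio is imprecise.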
